A study of Mus musculus with 36 samples.

Results

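The genes described here were 10 genes of the NRF2 and antioxidant defence system, Nfe2l2, Hmox1, Nqo1, Gclc, Gclm, Txnrd1, Srxn1, Sod1, Sod2 and Gpx4, of 40205 features in the count tables. They were taken by symbol from a list, with no threshold on their values, and all 10 were found. The list was chosen with earlier results of these data known. RNA was sequenced from mouse fetal neural stem cells (NSCs) and from the extracellular vesicles (EVs) that the same cultures released, in 18 cell and 18 EV libraries. The question asked of these genes was how their transcripts responded to ethanol in cells and in EVs, and how EVs differed from cells.

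Nfe2l2 encodes NRF2, a transcription factor that KEAP1 holds back in unstressed cells by directing it to degradation. When electrophiles or oxidants modify KEAP1, NRF2 accumulates, pairs with a small MAF protein and binds the antioxidant response element of genes for glutathione synthesis, thioredoxin reduction, NADPH supply and heme and quinone metabolism. The cytosolic and mitochondrial superoxide dismutases and the lipid peroxidase GPX4 stand beside this pathway in the same defence, and ethanol metabolism is known to generate reactive oxygen species.

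Neurospheres were grown from dorsal telencephalon of C57BL/6J fetuses at gestational day 12.5, and the tissue of a pregnancy was pooled by sex, so that each of 3 pregnancies (numbered 3, 4 and 5) gave 1 female culture and 1 male one. Each of the 6 cultures was grown without ethanol (control), with 120 mg/dL (26 mM) and with 320 mg/dL (70 mM) for 5 days, with fresh medium on day 3, and measured doses were 100 to 134 and 250 to 380 mg/dL. No group carried a genetic treatment, and the study's methods name the strain as an Ai14 reporter line. The model had limits: the cultures were at passages 7 to 10 in mitogenic medium without serum, a sample was 4 flasks, littermates were pooled, and EVs were collected from conditioned medium by filtration and ultracentrifugation.

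Library totals were 26.6 to 55.3 M (megacounts) in cells and 0.959 to 5.51 M in EVs, and 6 EV libraries held under 2 M (the female control of pregnancy 3, the female culture of pregnancy 4 at all 3 doses, and the male culture of pregnancy 3 at both ethanol doses). Of 10 NSC markers 9 were above 1 CPM (counts per megacount of library size, scaled by TMM) by median in cells, with a summed level of 2708 to 4383 CPM there and 822 to 1497 CPM in EVs, while Sox2 was listed at 0 in every library. Whether such a 0 came from absent RNA or from how reads were counted was not tested. Neuron markers (6 genes) summed to 5.36 to 21.9 CPM in cells and 18.4 to 80.1 CPM in EVs, and microglia markers (7 genes) to 0.550 to 0.925 CPM in cells and 1.09 to 14.999 CPM in EVs, with P2ry12 at 0. Among the neuron markers the mean of Tbr1 was 1.94 CPM in cells and 25.5 CPM in EVs. Dcx, Neurod2 and Stmn2 were higher in EVs by less, and Tubb3 (4.77 and 3.74 CPM) and Neurod1 were lower there. Oligodendrocyte lineage markers (5 genes) summed to 285 to 570 CPM in cells and 195 to 402 CPM in EVs. Fewer cells of a type and less RNA per cell cannot be told apart in such samples. The part of these markers and of depth in the EV results below was not tested.

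Promoter sequence is shown for the members whose start regions held letters of the antioxidant response element, because NRF2 acts through that element. RefSeq promoter windows (GRCm38.p6, 250 bases before to 50 after a start) were listed for 8 of the 10 genes, in 13 windows. The core TGANNNNGC, searched on both strands, was present in 6 of these windows, from 5 genes, and in 41.3% of the 32851 mouse windows of the same length. The narrower TGACNNNGC, which is contained in the first, was found in 5 member windows and in 12.4% of all windows. The runs below are written 5′ to 3′ on the strand of the gene, with the match to TGANNNNGC or to its reverse complement in capitals.
Nfe2l2, chr2:75704879-75704913, minus strand, match starting 240 bases before the start site: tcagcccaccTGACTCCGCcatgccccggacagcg
Gclm, chr3:122245407-122245447, plus strand, 134 bases before: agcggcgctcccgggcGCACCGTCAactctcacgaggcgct
Txnrd1, chr10:82859098-82859138, plus strand, 92 bases before one start: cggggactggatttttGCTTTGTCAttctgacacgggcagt
Txnrd1, chr10:82860241-82860281, plus strand, 84 bases before another start: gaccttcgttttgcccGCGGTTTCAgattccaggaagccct
Srxn1, chr2:152105350-152105390, plus strand, 158 bases before: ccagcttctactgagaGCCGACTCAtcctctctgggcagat
Srxn1, chr2:152105451-152105503, plus strand, 57 and 45 bases before, a pair of matches: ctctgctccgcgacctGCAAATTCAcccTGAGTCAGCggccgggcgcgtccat
Sod1, chr16:90220690-90220730, plus strand, 56 bases before: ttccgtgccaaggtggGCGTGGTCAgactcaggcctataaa

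Srxn1 was the member with the most matches upstream of a start. The windows of Nqo1, Sod2 and Gpx4 held no match, which says only that these letters were not in those windows. Hmox1 and Gclc were not among the windows used here. A match is a description of letters and not evidence of binding.

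Levels between genes were compared as CPM per kilobase of the canonical transcript. Its length in GENCODE ran from 959 bases for Gpx4 to 7203 for Srxn1, with 5315 for Sod1 and 6349 for Gclm. Which transcripts were present was not tested, and another length for a gene could change its place in the cell and EV orders. In cells the means over 18 libraries were 36.5 for Hmox1 (heme oxygenase, which degrades heme), 33.9 for Txnrd1 (cytosolic thioredoxin reductase), 32.2 for Gpx4 (glutathione peroxidase that reduces lipid hydroperoxides) and 27.3 for Nfe2l2. Gclc, the catalytic subunit of glutamate-cysteine ligase, stood at 18.9 and Srxn1, the sulfiredoxin that restores hyperoxidised peroxiredoxins, at 13.9. Sod2, the mitochondrial dismutase, was at 8.88, Sod1, the cytosolic copper-zinc dismutase, at 4.54, Gclm, the modifier subunit of glutamate-cysteine ligase, at 3.58 and Nqo1, a quinone reductase, at 0.775 CPM per kb. Neighbours in this order overlapped over the libraries except at 2 steps, from Sod2 to Sod1 and from Gclm to Nqo1, and Nqo1 was the lowest member in each of the 18 cell libraries.

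In EVs the order was different. Txnrd1 led in all 18 EV libraries at 33.9 CPM per kb, followed by Nfe2l2 at 7.84, Sod2 at 7.19, Gpx4 at 6.98, Hmox1 at 5.01, Gclc at 4.82 and Srxn1 at 4.80 on the same scale. Sod1 followed at 3.55, Gclm at 1.70 and Nqo1 at 0.658 CPM per kb. Neighbouring members overlapped over the libraries at each step of the EV order. Txnrd1 and Nfe2l2 overlapped only through 1 library, the EVs of the male culture of pregnancy 5 at 120 mg/dL.

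All later levels are CPM on 1 scale across the 36 libraries, and a log2 fold change was called when its adjusted p was under 0.05 by the edgeR quasi-likelihood test (Benjamini-Hochberg over all genes tested). In cells none of the 10 members passed this threshold at 120 or at 320 mg/dL. The dose response of cells was therefore described culture by culture, and the plot of cell levels by dose shows each culture as a line.

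**Figure D1:**
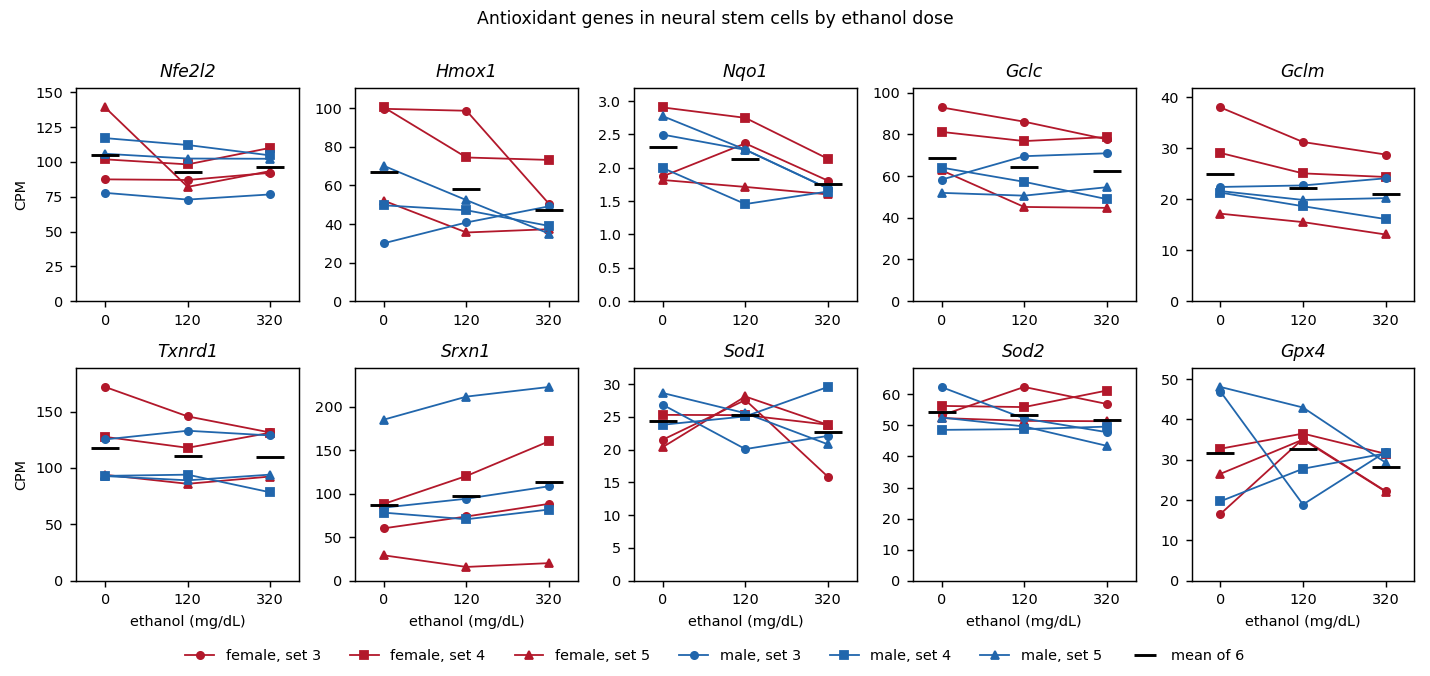
CPM (linear axis) of the 10 members in the 18 cell libraries against ethanol dose in mg/dL; lines join the 3 doses of a culture, colour gives the sex, the marker the pregnancy and the black bar the mean of 6 cultures. For Srxn1 the male culture of pregnancy 5 lies above and the female culture of pregnancy 5 below all other cultures at each dose, and all 3 dose groups overlap for every member.

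Nfe2l2, the regulator itself, had 77.8, 103.9 and 139.2 CPM (lowest, median, highest) in control cells, 73.0, 92.7 and 112.2 CPM at 120 mg/dL and 76.7, 97.9 and 110.1 CPM at 320 mg/dL. The groups overlapped throughout. The female culture of pregnancy 5 went from 139.2 CPM to 82.1 CPM at 120 mg/dL, and the other 5 cultures were lower by under 0.1 on the log2 scale. The log2 fold change at 120 mg/dL was -0.18 (SE 0.09, adjusted p = 1.0), lower in 6 of 6 cultures as were 1.69% of all genes, and at 320 mg/dL it was -0.11 (SE 0.09, adjusted p = 0.794).

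Among the classical NRF2 targets, Nqo1 had the most uniform direction at 320 mg/dL. Its levels were 1.82, 2.25 and 2.90 CPM in control cells, 1.46, 2.27 and 2.75 CPM at 120 mg/dL and 1.601, 1.690 and 2.13 CPM at 320 mg/dL, from 46 to 193 counts a library. All 6 cultures were lower at 320 mg/dL than in their control, the male culture of pregnancy 5 from 2.77 to 1.69 CPM and the female culture of pregnancy 3 from 1.87 to 1.81 CPM. The log2 fold change was -0.37 (SE 0.11), or 0.773 times the control, with an unadjusted p of 0.00479 and an adjusted p of 0.344. Of all genes tested 2.29% were lower in all 6 cultures at this dose.

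Hmox1 had 30.1, 61.1 and 100.4 CPM in control cells, 35.6, 49.8 and 98.7 CPM at 120 mg/dL and 35.04, 44.1 and 73.2 CPM at 320 mg/dL. At 320 mg/dL 5 of 6 cultures were lower, the female culture of pregnancy 3 at 50.5 against 99.7 CPM, and the male culture of pregnancy 3 was higher at 49.2 against 30.1 CPM. Its log2 fold change of -0.42 (SE 0.18) was the widest of the members in cells and had an adjusted p of 0.545.

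The paired subunits of glutamate-cysteine ligase, which makes the first intermediate of glutathione, were both below control on average. Gclm stood at 17.2, 22.0 and 38.0 CPM in control cells, 15.5, 21.3 and 31.2 CPM at 120 mg/dL and 13.1, 22.1 and 28.8 CPM at 320 mg/dL. It was lower in 5 of 6 cultures at 320 mg/dL, with a log2 change of -0.24 (SE 0.07, unadjusted p = 0.00685, adjusted p = 0.375), and the male culture of pregnancy 3 was again the exception. Gclc, at 44.7 to 92.9 CPM over all cell libraries, had a log2 change of -0.14 (SE 0.09, adjusted p = 0.737) at 320 mg/dL.

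Srxn1 was the only member with a positive log2 fold change in cells at 320 mg/dL, 0.25 (SE 0.15, adjusted p = 0.667). Control cells held 29.2, 81.2 and 185.4 CPM, those at 120 mg/dL 15.9, 84.1 and 211.8 CPM and those at 320 mg/dL 20.3, 98.6 and 222.9 CPM. Against control 5 of 6 cultures were higher, the female culture of pregnancy 4 at 160.4 against 88.4 CPM, while the female culture of pregnancy 5 was lower at 20.3 against 29.2 CPM. From 120 to 320 mg/dL all 6 cultures were higher, by a mean log2 difference of 0.26 (SD 0.12), and 2.02% of all genes were higher in all 6 cultures at this step. The fitted value for that step was 0.26 (SE 0.14, adjusted p = 1.0).

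The remaining members varied less with dose than between libraries of a dose. Txnrd1 lay between 78.4 and 171.8 CPM and had a log2 change of -0.09 (SE 0.08) at 320 mg/dL, and Sod2 lay between 43.4 and 62.4 CPM with -0.07 (SE 0.07). Sod1 gave -0.11 (SE 0.12, 15.9 to 29.6 CPM) and Gpx4 -0.10 (SE 0.23, 16.6 to 48.1 CPM), for which cultures went in both directions. Adjusted p values of these 4 genes were 0.790 or above.

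Over the 10 members, 8 had a log2 fold change below 0 at 120 mg/dL and 9 at 320 mg/dL, with medians of -0.10 and -0.11, beside 54.8% and 51.6% of all genes and medians of -0.01 for both doses. By edgeR 0 of 10 members were called at 120 mg/dL, 1 had an unadjusted p under 0.05 (Gclm, log2 fold change -0.17, SE 0.07) and DESeq2 called 0, where edgeR called 0% of 17792 genes and gave 2.5% of them an unadjusted p under 0.05. At 320 mg/dL 0 members were called, 3 had an unadjusted p under 0.05 (Nqo1, Gclm and Hmox1, all lower) and DESeq2 called 0, where edgeR called 0.0393% of all genes and 4.5% were lower at an unadjusted p under 0.05. Between the 2 ethanol doses 0 were called by edgeR or DESeq2 and 1 had an unadjusted p under 0.05 (Nqo1, log2 fold change -0.25, SE 0.11), beside 0% called and 3.56% at that unadjusted p among all genes. Both doses were compared with the same control libraries.

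An exact sign-flip permutation test over the 6 cultures cannot give a two-sided p under 0.03125, and 3 of 60 such tests over members, locations and dose steps reached it. These were Nqo1 at 320 mg/dL, Nfe2l2 at 120 mg/dL and Srxn1 between the ethanol doses, all in cells. A test reaches this p only when all 6 cultures change in the same direction, which is already given above for these 3. By chance each test reaches it at a rate of 0.03125, and the 60 were not corrected for their number. The shares of all genes with the same direction in all 6 cultures were 2.29%, 1.69% and 2.02% for these steps.

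EVs held fewer counts of each member, from 1 to 512 in a library, and Nqo1 (1 to 10 counts) did not pass the filter on low counts for the dose test. Across dose, EV levels of every member overlapped and no member was called. Nfe2l2, Srxn1 and Gclm had the widest log2 fold changes in EVs.

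**Figure D2:**
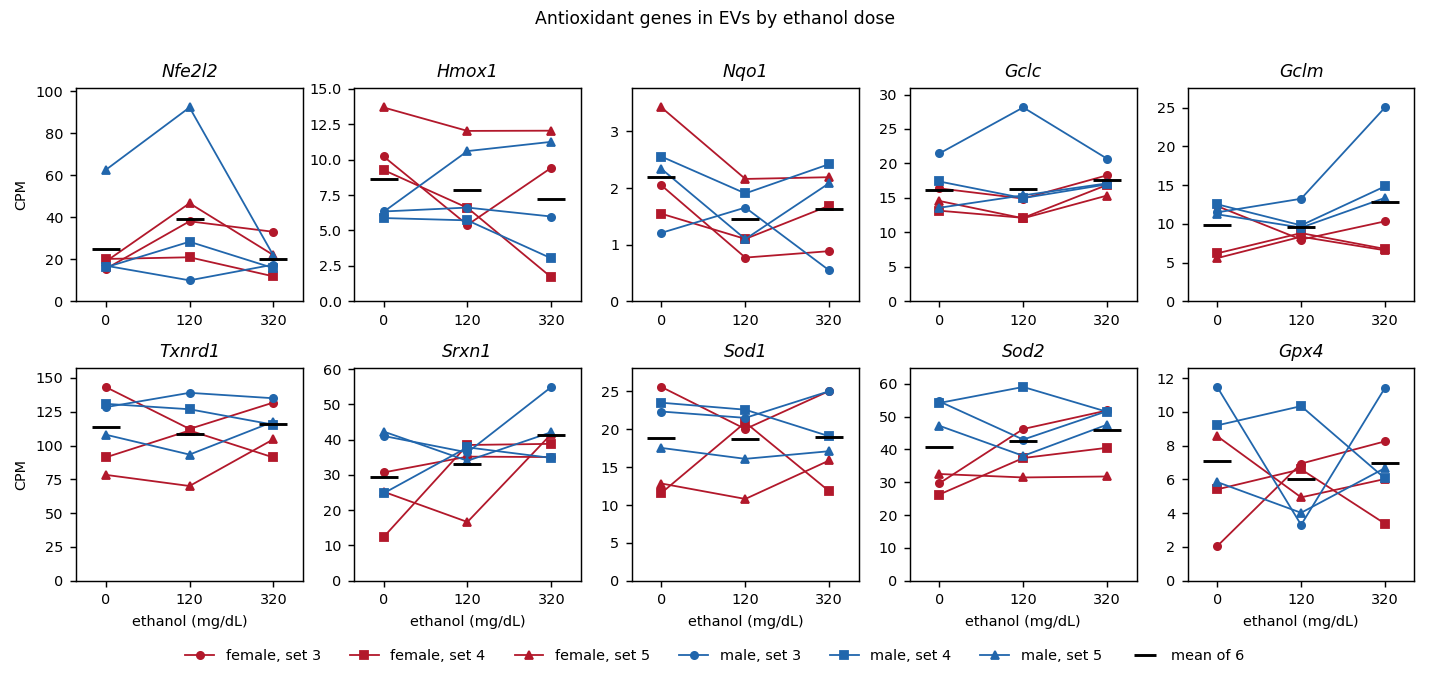
CPM (linear axis) of the 10 members in the 18 EV libraries against ethanol dose in mg/dL; lines join the 3 doses of a culture, colour gives the sex, the marker the pregnancy and the black bar the mean of 6 cultures. The Nfe2l2 line of the male culture of pregnancy 5 stands at 62.4, 92.2 and 21.7 CPM, the highest of the 6 at control and 120 mg/dL, and Srxn1 lies between 34.8 and 55.0 CPM at 320 mg/dL.

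Nfe2l2 in EVs had 15.4, 17.9 and 62.4 CPM in controls, 9.93, 33.2 and 92.2 CPM at 120 mg/dL and 11.8, 19.6 and 33.0 CPM at 320 mg/dL. It was higher at 120 mg/dL in 5 of 6 cultures, and the male culture of pregnancy 3 was lower at 9.93 against 16.9 CPM. The log2 fold change was 0.65 (SE 0.26, unadjusted p = 0.0242, adjusted p = 0.791) at 120 mg/dL and -0.18 (SE 0.28, adjusted p = 0.885) at 320 mg/dL. Between the ethanol doses it was -0.82 (SE 0.27, unadjusted p = 0.00734, adjusted p = 1.0). Without a filter on low counts the last value was -0.80 with an adjusted p of 0.00505, and without pregnancy 5 it was -0.35 with an adjusted p of 1.0.

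Srxn1 stood at 12.4, 27.98 and 42.3 CPM in control EVs, 16.7, 35.8 and 38.5 CPM at 120 mg/dL and 34.8, 40.2 and 55.0 CPM at 320 mg/dL. At 320 mg/dL 5 of 6 cultures were above their control, the female culture of pregnancy 4 at 38.8 against 12.4 CPM, and the male culture of pregnancy 5 was nearly level at 42.1 against 42.3 CPM. The log2 fold change was 0.48 (SE 0.20, unadjusted p = 0.0334, adjusted p = 0.373), and it was 0.31 both without pregnancy 4 and without the 6 EV libraries of low total.

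Gclm had 5.56, 11.3 and 12.5 CPM in control EVs, 7.96, 9.16 and 13.2 CPM at 120 mg/dL and 6.57, 11.8 and 25.03 CPM at 320 mg/dL, from 4 to 49 counts. It was higher in 5 of 6 cultures at 320 mg/dL, and the log2 fold change was 0.38 (SE 0.19, adjusted p = 0.447). The other 6 members tested had log2 fold changes from -0.20 to 0.15 over both doses against control. Txnrd1, with the most counts in EVs, was the most precise of them at -0.07 (SE 0.12) and 0.06 (SE 0.12).

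By edgeR 0 of 9 tested members were called in EVs at 120 mg/dL, 1 had an unadjusted p under 0.05 and DESeq2 called 0, beside 0.00842% of 11880 genes called by edgeR and 6.26% at the unadjusted p. At 320 mg/dL edgeR and DESeq2 called 0 members and 1 had an unadjusted p under 0.05, beside 0.0842% of all genes called and 11.9% at the unadjusted p. The median log2 fold change of the tested members was -0.05 at 120 mg/dL and 0.06 at 320 mg/dL, and that of all genes -0.01 and 0.01. Between the ethanol doses 0 were called by edgeR or DESeq2 and 1 had an unadjusted p under 0.05, beside 0% and 3.69% of all genes. With library totals in place of TMM the median of all genes in EVs moved to -0.26 and -0.23 against control.

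**Figure D3:**
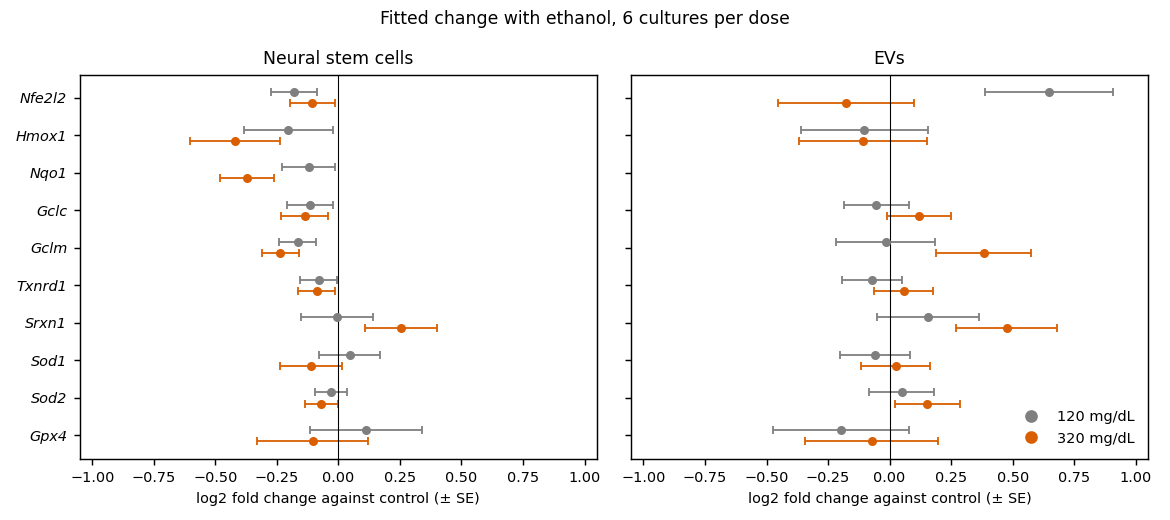
Log2 fold change against control of each member in cells and in EVs, at 120 mg/dL (grey) and 320 mg/dL (orange), with bars of 1 SE from the edgeR fit (n = 6 cultures a dose); Nqo1 was not tested in EVs. No member passed an adjusted p of 0.05, and the bars are wider in EVs than in cells for every member shown in both.

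The EV-to-cell ratio was then compared with that of the control in the same cultures. By edgeR 0 of 10 members were called at either dose, 1 had an unadjusted p under 0.05 at each, and DESeq2 called 0. For Nfe2l2 the log2 change of the ratio was 0.82 (SE 0.31, adjusted p = 1.0) at 120 mg/dL and -0.06 (SE 0.31) at 320 mg/dL. For Gclm it was 0.58 (SE 0.18, unadjusted p = 0.00554, adjusted p = 0.543) at 320 mg/dL. The background was 0% of 15281 genes called at either dose and 3.43% and 6.54% at an unadjusted p under 0.05.

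EVs differed from cells far more than ethanol-exposed from control samples did. This fit had no block for the culture or the pair. The 36 libraries of 6 cultures were taken as independent, so its SE and p values do not allow for libraries that share a culture. Of the 10 members 8 were lower in EVs, from 1.23 times for Sod2 to 7.00 times for Hmox1, and Nqo1 and Txnrd1 were not called. Among all genes 80.5% were called in this comparison and 42.2% were lower in EVs, and the share of called genes that were higher in EVs was 47.6% with TMM and 26.9% with library totals. The median log2 fold change of the members was -1.30 and that of all genes -0.08.

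**Figure D4:**
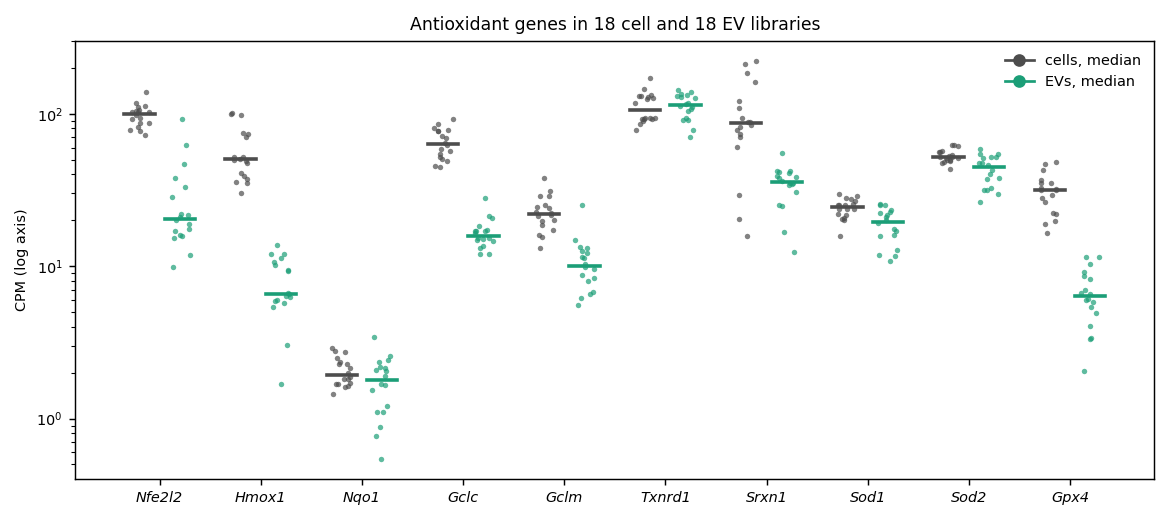
CPM (log axis) of each member in the 18 cell libraries (grey) and the 18 EV libraries (green), with a line at each median. The EV points of Hmox1, Gclc and Gpx4 lie wholly below the cell points, and those of Txnrd1 cover the same range.

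Hmox1 ranged from 30.1 to 100.4 CPM in cells (median 50.1) and from 1.69 to 13.7 CPM in EVs (median 6.61), with no overlap. The log2 fold change was -2.81 (SE 0.17, adjusted p = 7.1e-17), and the EV library was below the cell library in 18 of 18 pairs of a culture and dose. Gpx4, which guards membranes against lipid peroxidation, had 30.9 ± 9.16 CPM in cells and 6.69 ± 2.75 CPM in EVs (SD, n = 18 each), with -2.14 (SE 0.16, adjusted p = 2.5e-14). Gclc had 65.1 ± 14.7 and 16.6 ± 3.85 CPM, with -1.98 (SE 0.11, adjusted p = 7.3e-18). These 3 of 10 members had every EV library below every cell library, as had 14.9% of all genes.

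Nfe2l2 had 97.996 ± 16.4 CPM in cells and 28.2 ± 20.8 CPM in EVs, with a log2 change of -1.80 (SE 0.20, adjusted p = 4.3e-10), lower in 18 of 18 pairs. Its ranges overlapped through the EVs of the male culture of pregnancy 5 at 120 mg/dL, where the ratio of EV to cell CPM was 0.8997 against a median of 0.215 over the pairs. Srxn1 had 99.8 ± 60.4 and 34.6 ± 9.95 CPM with -1.50 (SE 0.23, adjusted p = 3.7e-07), lower in 16 of 18 pairs. Gclm had 22.7 ± 6.17 and 10.8 ± 4.48 CPM with -1.09 (SE 0.16, adjusted p = 7.0e-08), lower in 17 of 18 pairs, so the subunit that catalyses was reduced further than the one that modifies, by fitted values of -1.98 and -1.09 whose difference was not tested.

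The dismutases changed least among the called members. Sod1 was at 24.1 ± 3.53 and 18.9 ± 4.89 CPM, with a log2 change of -0.35 (SE 0.11, adjusted p = 0.00285), and 4217 exonic bases of it overlap Scaf4 on the opposite strand. Sod2 was at 53.1 ± 5.21 and 43.0 ± 9.95 CPM, with -0.30 (SE 0.09, adjusted p = 0.00263). Sod1 was no longer called without pregnancy 4 (-0.27), without pregnancy 5 (-0.14) or in control libraries alone (-0.44), and Sod2 not without pregnancy 5 (-0.21). Lower EV values stood in 14 and 13 of 18 pairs.

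Txnrd1 had 112.6 ± 25.5 CPM in cells and 112.7 ± 21.3 CPM in EVs, and the EV library was lower in 7 of 18 pairs. Its log2 fold change of 0.01 (SE 0.11, adjusted p = 0.963) turned to -0.77 with library totals, which moved the median of all genes from -0.08 to -0.88, and to -0.61 without a filter, where that median was 0.46. Relative to the median of all genes Txnrd1 was at 0.09 with TMM, 0.11 with library totals and -1.08 without a filter. By DESeq2 its own value was 0.07, and it was at -1.66 relative to a median of 1.73. The last 2 medians are over 31069 genes, against 15281 with the filter, so they are not of the same genes as the first 2. Nqo1, at 2.07 ± 0.446 CPM in cells and 1.76 ± 0.735 CPM in EVs, had -0.22 (SE 0.16, adjusted p = 0.227) and was called lower with library totals (-1.05) and without a filter (-0.84), while without pregnancy 3 its value was 0.07.

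Of 71 other genes of the pathway 65 were tested between EVs and cells, of which 14 were higher in EVs, 45 lower and 6 not called, with a median of -0.81. Glutathione genes were mostly lower, 12 of 15 tested, with 1 higher and a median of -1.38. The 6 genes of NADPH supply tested were all lower, with a median of -0.73. Thioredoxin and peroxiredoxin genes were divided into 6 higher and 8 lower of 17 tested, with a median of -0.05, and of 9 regulators 3 were higher and 6 lower. Of 9 other NRF2 targets tested 3 were higher and 5 lower, of 5 selenoprotein synthesis genes 1 was higher and 4 lower, and both tested genes of the superoxide and hydrogen peroxide group and both of the ferroptosis group were lower.

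**Figure D5:**
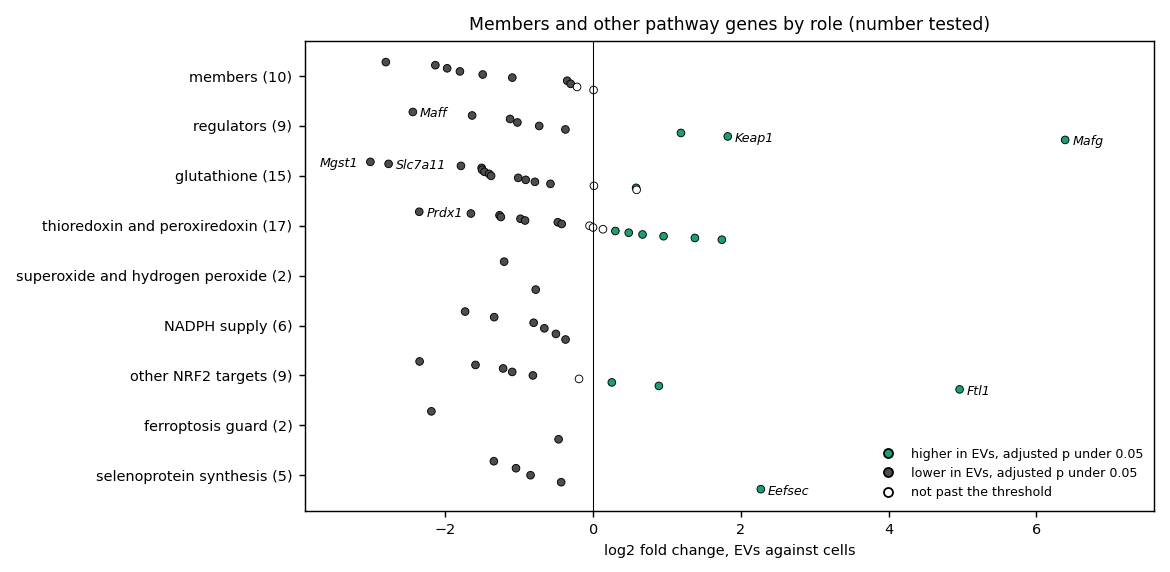
Log2 fold change of EVs against cells (x axis) for the 10 members and the 65 other pathway genes tested, grouped by role; positive values are higher in EVs. The labelled genes are those with the widest called changes, from Mgst1 at -3.02 to Mafg at 6.39.

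Mafg, a small MAF partner of NRF2, went from 33.3 ± 4.91 CPM in cells to 2905 ± 1117 CPM in EVs (SD, n = 18 each), a log2 change of 6.39 (SE 0.19). Ftl1, a ferritin subunit that stores iron, went from 224.9 ± 44.1 to 7148 ± 2723 CPM (4.96), and Keap1, the repressor of NRF2, from 19.0 ± 4.43 to 69.0 ± 22.9 CPM (1.82). Eefsec, the elongation factor for selenocysteine, went from 12.1 ± 3.40 to 66.9 ± 60.8 CPM (2.27). Nfe2l2 was lower in EVs, as were 6 of the 9 regulators, among them the other small MAF genes of the list. Keap1 and Mafg were among the 3 regulators that were higher. What RNA gave the EV counts of Mafg, Ftl1, Keap1 and Eefsec was not tested.

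The widest reductions were those of Mgst1, a microsomal glutathione transferase, from 41.8 ± 9.59 to 4.95 ± 2.60 CPM (-3.02), and Slc7a11, the cystine importer, from 87.6 ± 37.4 to 12.9 ± 2.44 CPM (-2.77). Maff, another small MAF, went from 20.6 ± 15.1 to 3.91 ± 1.69 CPM (-2.44) and Prdx1, a peroxiredoxin, from 93.4 ± 33.4 to 18.1 ± 5.31 CPM (-2.35). Ethanol gave no call by edgeR in this list, in 0 of 67 genes tested in cells and 0 of 58 in EVs at either dose. At an unadjusted p under 0.05 by edgeR there were 2 genes in cells and 2 in EVs at 120 mg/dL, all lower, and at 320 mg/dL 1 higher and 8 lower in cells and 1 higher and 6 lower in EVs. Among all genes the share at that p was 2.5% in cells and 6.26% in EVs at 120 mg/dL, in either direction. At 320 mg/dL it was 4.5% for lower genes in cells and 11.9% in EVs in either direction. DESeq2 called 0 in either location at 120 mg/dL, while Pgd in cells and Keap1 and Mafg in EVs were called lower by it at 320 mg/dL.

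Sex was compared over the 9 female and 9 male libraries of each location, with the 3 libraries of a culture taken as independent. In cells no member was called (1 at an unadjusted p under 0.05, 0 by DESeq2), beside 5.83% of 17052 genes called by edgeR and 22.3% at the unadjusted p. Hmox1 was the one, with 0.53 for females against males on the log2 scale (SE 0.21, adjusted p = 0.145). Srxn1 had 73.1 ± 48.1 CPM in females and 126.5 ± 61.9 CPM in males, with -0.85 (SE 0.41, adjusted p = 0.239). Its value was -1.71 without pregnancy 4 and 0.13 without pregnancy 5, so the direction rested on the cultures of pregnancy 5.

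In EVs 1 of 9 members, Gclm, was called (2 by DESeq2), beside 11.1% of 11037 genes called and 4.06% called lower in females. Gclm had 8.09 ± 2.16 CPM in female and 13.4 ± 4.67 CPM in male EVs (SD, n = 9 each), a log2 change of -0.60 (SE 0.18, adjusted p = 0.0424). Within pregnancies 3, 4 and 5 the means of 3 doses were 10.2, 7.24 and 6.82 CPM in females and 16.6, 12.4 and 11.4 CPM in males, so males were higher in 3 of 3. The call was lost with library totals (-0.81, adjusted p = 0.152), without pregnancy 4 (-0.63, adjusted p = 0.159), without pregnancy 5 (-0.55, adjusted p = 0.238), without the EV libraries of low total (-0.55, adjusted p = 0.122) and with the counts of the 3 doses summed (-0.72, adjusted p = 0.315). In cells the same gene was at 24.7 ± 8.15 CPM in females and 20.8 ± 2.39 CPM in males.

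The response to 320 mg/dL was not called as different between the sexes for any member. By edgeR and DESeq2 0 of 10 members in cells and 0 of 9 by edgeR in EVs were called, and 0 had an unadjusted p under 0.05, beside 0% of all genes called in either and 18.6% in cells and 3.75% in EVs at that unadjusted p. The lowest p in cells was that of Gclm, whose difference of log2 fold changes (female minus male) was -0.27 (SE 0.14, unadjusted p = 0.0700, adjusted p = 0.304).

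Which culture a library came from accounted for most of the spread of several members in cells. Culture held 94.6% of the sum of squares of log2 CPM for Srxn1, 89.5% for Txnrd1, 86.6% for Gclm and 80.3% for Gclc, and 25.7% for Sod1 and 36.6% for Gpx4. Dose held 26.4% for Nqo1 and at most 10.8% for the other members. In EVs culture held from 71.4% for Txnrd1 and 71.1% for Sod1 down to 25.4% for Srxn1, the lowest member. Dose held 24.8% for Srxn1 in EVs, the most of any member there, and 15.7% for Nfe2l2. No share was set against the share that chance alone gives.

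Srxn1 was the most variable member between cultures. Over 3 doses its cell level was 21.8 ± 6.79 CPM in the female and 206.7 ± 19.3 CPM in the male culture of pregnancy 5 (SD, n = 3 each). In pregnancy 4 the female culture was the higher one, at 123.1 ± 36.1 against 77.0 ± 5.71 CPM, and in pregnancy 3 it was the lower, at 74.2 ± 14.1 against 95.7 ± 12.3 CPM. EV means of the same cultures spanned only 27.8 to 44.1 CPM, and over the 18 pairs of a culture and dose the EV-to-cell ratio of Srxn1 lay between 0.140 and 2.05.

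Once the mean of each culture was taken off, the members that varied most alike over the 18 cell libraries were Gclc and Gclm (Pearson r = 0.79), followed by Sod1 and Gpx4 (0.70), Gclm and Txnrd1 (0.69) and Gclc and Txnrd1 (0.69). Many genes outside the list varied more like a member than these partners did. Among 17791 genes Gclm ranked 790 for Gclc and 1479 for Txnrd1, and Gclc ranked 293 for Gclm. Gpx4 ranked 346 for Sod1, and Sod1 ranked 698 for Gpx4. Over the 17791 other genes, the one most like Nfe2l2 was Plaur (0.97), that most like Gclc was Gapvd1 (0.98) and that most like Gpx4 was Rpl15 (0.98). The nearest genes to Hmox1, Nqo1, Gclm and Txnrd1 were Hexim1 (0.94), Cst6 (0.90), Brwd1 (0.92) and Nek9 (0.94). For Srxn1, Sod1 and Sod2 they were Oaf (0.89), Gm47112 (0.92) and Hdhd2 (0.96). These are descriptions over libraries that share cultures, doses and 1 sequencing run, each the best of many genes.

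On GRCm39 the members lie at chr2:75504739-75534985 (Nfe2l2), chr8:75820241-75827217 (Hmox1), chr8:108113835-108129934 (Nqo1), chr9:77661797-77701770 (Gclc) and chr3:122039126-122065061 (Gclm). Txnrd1 lies at chr10:82669785-82733546, Srxn1 at chr2:151947436-151957687, Sod1 at chr16:90017408-90027657, Sod2 at chr17:13224095-13259591 and Gpx4 at chr10:79883000-79892273. Gclm also shares 492 exonic bases with the pseudogene Gm6061 on its own strand and 869 and 130 with Gm17494 and another long noncoding RNA on the opposite one, so its counts are the less certain. The remaining exonic overlaps were with long noncoding RNAs on the opposite strand, of 803 and 363 bases for Sod2, 278 for Nfe2l2, 242 for Srxn1 and 228 for Gpx4.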

How the data were processed

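Total RNA of 18 cell and 18 EV samples was sequenced by the authors with a stranded kit after ribosomal depletion, in 1 pooled run. The deposited values are whole-number read counts per gene and library, without normalization, which the authors made by trimming and deduplication (SeqSense), trimming with Trimmomatic, alignment with STAR to mm39 and counting with HTSeq. Whether counting used strand is not given in the sources used here. Duplicate removal keeps PCR copies from inflating a count, and an EV library, with fewer counts than a cell library, carries a larger counting error.

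From the counts, edgeR 4.0.16 in R 4.3.3 (quasi-likelihood F test, TMM, filterByExpr with a minimum count of 10 and total of 15, Benjamini-Hochberg over all genes tested) gave log2 fold changes. The SE was the log2 fold change divided by the square root of F, which is too small where edgeR bounds the p from below. Doses were compared in a fit of 18 libraries with culture as a block, EVs with cells in 36 libraries with sex and dose, the ratio by its interaction term in pairs of a culture and dose, and the sexes with dose as a covariate. CPM were counts over totals scaled by TMM across the 36 libraries, and log2 CPM used a prior count of 1. DESeq2 1.42.0 and the other alternatives are given in the closing section. The tests were also run on simulated counts with 200 genes changed 2-fold. Those counts held no culture effect and, for EVs against cells, no other difference between the locations. No result given here rests on them.

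The culture block rests on the labels, since the same number and sex is the same pooled litter. Deviations of control and ethanol libraries of a culture from their group means correlated with a median r of 0.698 (120 mg/dL) and 0.683 (320 mg/dL) in cells, over the limit of 0.1 in 6 of 6 cultures at each dose, and of 0.345 and 0.468 in EVs, in 4 of 6 and 5 of 6. Cultures of different pregnancies are the biological replicates (3 a sex). The SEs rest on the spread between libraries in the edgeR fit. No 2 libraries held identical counts.

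The members, the 71 other genes of the pathway and the marker lists were chosen with earlier results of these data known. The 10 members were named in every main comparison, the other pathway genes only where they were among the up to 4 widest called changes in a direction, and for each member the 1 gene with the highest correlation in cells. Gene lengths and positions were from the GENCODE vM39 annotation, and promoter windows from RefSeq. Endothelial markers (4 genes) summed to 1.23 to 4.15 CPM in cells and 2.81 to 42.2 CPM in EVs, mesenchymal (5 genes) to 0.475 to 2.91 and 2.72 to 23.6 CPM, astrocyte (4 genes) to 19.6 to 247 and 14.7 to 139 CPM, erythroid (5 genes) to 0.0306 to 0.196 and 0 to 3.38 CPM, and tetraspanins (3 genes) to 274 to 488 and 35.4 to 77.2 CPM.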

Additional observations from a re-analysis of the deposited data

Results flagged for a closer look

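Of 60 groups of 6 libraries (10 members, 2 locations, 3 doses), 5 held a sample far from the other 5 by the gap test of Dixon, against about 5% that chance gives, and all 5 were in EVs. Nfe2l2 in control EVs was 62.4 CPM (267 counts) in the male culture of pregnancy 5, with the others at 15.4 to 20.1 CPM. Gclc at 120 mg/dL was 28.1 CPM (17 counts) in the male culture of pregnancy 3, with the others at 12.04 to 15.4 CPM, and Gclm in the same library was 13.2 CPM (8 counts), with the others at 7.96 to 9.80 CPM. Srxn1 at 120 mg/dL was 16.7 CPM (54 counts) in the female culture of pregnancy 5, with the others at 34.0 to 38.5 CPM. Srxn1 at 320 mg/dL was 55.0 CPM (101 counts) in the male culture of pregnancy 3, with the others at 34.8 to 42.1 CPM. Both ethanol libraries of that last culture were among the 6 EV libraries under 2 M (megacounts).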

How the results depend on the processing

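The counts below are of all genes called. DESeq2 was run without the filter on low counts before the fit and with median-of-ratios size factors in place of TMM. Several choices thus changed at once. With it, cells had 4 at 120 mg/dL, 94 at 320 mg/dL (7 by edgeR) and 3 between the doses. EVs had 13 (1 by edgeR), 267 (10 by edgeR) and 2. DESeq2 gave 23256 for EVs against cells (12302 by edgeR), 2 and 60 for the ratio at 120 and 320 mg/dL (0 by edgeR), 2071 and 2789 for sex in cells and EVs (994 and 1224 by edgeR; 2 members in EVs) and 118 for the sex difference of the response in cells. Size factors in edgeR gave 0 in cells at 320 mg/dL and 0 in EVs at 120 mg/dL. Library totals gave 0 in cells at 320 mg/dL, 4 and 6 in EVs at 120 and 320 mg/dL, 2 between the EV doses, 1 for the ratio at 120 mg/dL, 314 for sex in EVs (0 members) and 2 for the sex difference of the response in EVs. Without a filter there were 0 in cells at 320 mg/dL, 157, 207 and 128 in EVs at 120, 320 and between doses (1 member, Nfe2l2, in the last), 22029 for EVs against cells, 56 and 67 for the ratio and 165 for the sex difference in EVs. Txnrd1 in EVs against cells turned to -0.77 with library totals and -0.61 without a filter, where the share of called genes higher in EVs was 26.9% and 57.4%, against 47.6% with TMM and 72.9% by DESeq2. Leaving out a pregnancy gave 0 to 1 in cells at 320 mg/dL, 0 to 3 and 0 to 110 in EVs at 120 and 320 mg/dL (1, 110 and 0 without pregnancies 3, 4 and 5), 0 to 1 between EV doses, 0 to 2 for the ratio at 120 mg/dL, 198 to 2095 for sex in cells (198 without pregnancy 5, 2095 without 3) and 2 to 2616 for sex in EVs (0 to 2 members). Only the libraries of the doses compared gave 0 in cells at 320 mg/dL and 0 in EVs at both doses. Without the EV libraries of low total (chosen after seeing the data) there were 0 in EVs at 320 mg/dL, 2 between doses, 3 and 1 for the ratio, 30 for sex (0 members) and 5 for the sex difference. Counts summed over doses gave 7 for sex in cells and 0 in EVs (0 members). The cause of these changes was not tested.

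With no replicate block, 0 genes were called at 320 mg/dL in cells and 0 in EVs. The ratio had 1 at 120 mg/dL with the pair as a replicate block but no term for location by culture. Pregnancy as a replicate block gave 2953 for sex in cells and 2993 in EVs (2 members, Gclm and Sod2), where female and male cultures of a pregnancy share a number and a litter, and their deviations had a median r of -0.03 in cells (2 of 9 pairs over 0.1) and -0.24 in EVs (0 of 9). EV and cell libraries of a culture and dose had a median r of 0.08 (8 of 18 over 0.1). No other call of a member changed with a block. Sod2 in EVs, -0.37 for sex (adjusted p = 0.0700), was called by DESeq2 (-0.40), without pregnancy 3 (-0.54) and with the block.

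Over the members, 1198 results stayed on their side of the threshold, 9 crossed to called, 9 to not called, and in 2 Txnrd1 was called in the direction opposite to its uncalled value. Values that were never called also changed sign in some alternatives, as Nfe2l2 for sex in EVs, which ran from -0.58 to 0.52. EV values of Nqo1 (1 to 10 counts) and Hmox1 (1 to 39 counts) are limited by depth, and 3 pregnancies a sex limit every sex value.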

Other observations

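Outside the rule for named genes, and chosen after their values were seen, 3 other genes of the pathway passed the threshold by DESeq2 at 320 mg/dL and not by edgeR. Keap1, the repressor of NRF2, had a log2 change of -0.44 (SE 0.11, adjusted p = 0.136 by edgeR) in EVs, and Mafg, a small MAF partner of NRF2, -0.60 (SE 0.22, adjusted p = 0.277). Pgd, an NADPH-producing enzyme, had -0.27 (adjusted p = 0.196 by edgeR) in cells. Among the others with an unadjusted p under 0.05, Rbx1, which serves the same ubiquitin ligase as Keap1, had -0.33 in EVs (SE 0.12, adjusted p = 0.277). Cat, the catalase, had -0.19 in cells (SE 0.06, adjusted p = 0.403) and Glrx, a glutaredoxin, 0.41 (SE 0.15, adjusted p = 0.463).

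Between the sexes, 3 of 66 tested pathway genes were called in cells beside 5.83% of all genes, all 3 lower in females, namely Sesn1 (-0.54, adjusted p = 0.0297), Me1 (-0.61, adjusted p = 0.0455) and Acsl4 (-0.61, adjusted p = 0.0468). In EVs 5 of 53 were called beside 11.1% of all genes, of which Eefsec was higher in females (1.65, adjusted p = 0.0213) and Fth1 (-0.76, adjusted p = 0.0193), Gstm5 (-0.54, adjusted p = 0.0227), Keap1 (-0.60, adjusted p = 0.0313) and Rbx1 (-0.40, adjusted p = 0.0497) were lower. Fth1, a ferritin subunit, and Keap1 were thus lower in female EVs together with Gclm, and these edgeR values treat the 3 doses of a culture as separate samples. With counts summed over doses edgeR called 0 genes for sex in EVs.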
